A study of Mus musculus with 4 samples.

Results

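The genes described here are 51 genes of the BMP and TGF-beta signalling pathway, which were found by gene symbol among 24771 features of an RNA-seq table, each as a single row. They were 16 ligands, 11 receptors, 11 extracellular modulators, 8 Smads and 5 transcripts read as targets, namely Id1 to Id4 and Tgfbi. Their levels were compared between PSC-derived SG placodes on day 10 (iE-SGs in the sample labels) and mouse E12.5 SMGs, with 2 samples in each group, to see how the pathway of the cultured placodes stood beside that of the embryonic gland. Cells of the 129w2 mouse embryonic stem cell line had been plated 3000 to a well, with 2% growth factor reduced Matrigel from day 1. BMP4 (2 ng/ml) was added on day 3, and bFGF (25 ng/ml) and RA (1 μM) were applied from day 4 to day 6. On day 6 the aggregates were moved to fresh medium with FGF10 (200 ng/ml). BMP4, itself a product of this pathway, was thus part of the protocol of both placode samples. Both placode samples came from this 1 cell line. The mouse strain, the dissection and the number of embryos behind each SMG sample are not given in the sources used here. Nothing states that the samples of a group came from separate cultures or litters. The p-values below thus rest on the spread between these samples, which may be technical. For each gene this spread was estimated in part from all tested features.

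BMPs, GDFs, TGF-betas and activins are secreted dimers that bind a complex of type I and type II receptor kinases. The type I receptor then phosphorylates receptor Smads, Smad1, Smad5 and Smad9 for BMPs and Smad2 and Smad3 for TGF-betas and activins, which enter the nucleus with Smad4. Antagonists such as noggin and chordin trap the ligands outside the cell, and the inhibitory Smads, Smad6 and Smad7, damp the signal inside it. In the branching SMG, BMPs, activins and TGF-betas are known to affect bud growth and clefting, while in early ectoderm low BMP signalling is known to favour neural over surface fates.

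The unit is FPKM, the fragments of a gene scaled to its transcript length and to the mapped fragments of the sample, so levels can be set beside each other between genes. The depth of the samples is unknown. Genes with a mean FPKM of at least 1 over the 4 samples were tested as log2(FPKM + 1) with limma, and "called" means an adjusted p below 0.05 over all tested features. The log2 fold changes below are placode minus SMG on this scale, which understates changes of low genes, while ratios are of mean FPKM. Of the 51 genes, 46 were tested, and Bmp3, Bmp8a, Gdf6, Grem1 and Smad9 were not. With no minimum of mean FPKM, 4 of these 5 were called, where 58.1% of all 20464 features were called. Of the 46, 41 (89.1%) were called, against 76.2% of all 13193 tested features. There were 16 higher genes, where 35.7% of all features were higher, and 25 lower genes, where 40.4% of all features were lower. At least 2-fold differences were called for 27 of the 46, 9 higher and 18 lower (58.7% against 29.4% of all features, which divide into 14.1% higher and 15.2% lower). The tested genes had a median log2 fold change of -0.42, where that of all tested features was -0.05, and the median absolute change was 1.07 against 0.55. Placode and SMG values did not overlap for 43 of the 46, where 88.4% of all features did not overlap. The samples of a group differed little, by a median of 0.08 for the placode pair and 0.08 for the SMG pair on the log2 scale over the 51 genes, with the widest gap for Id2 in the placodes (0.49) and for Nog in the SMGs (0.52).

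**Figure D1:**
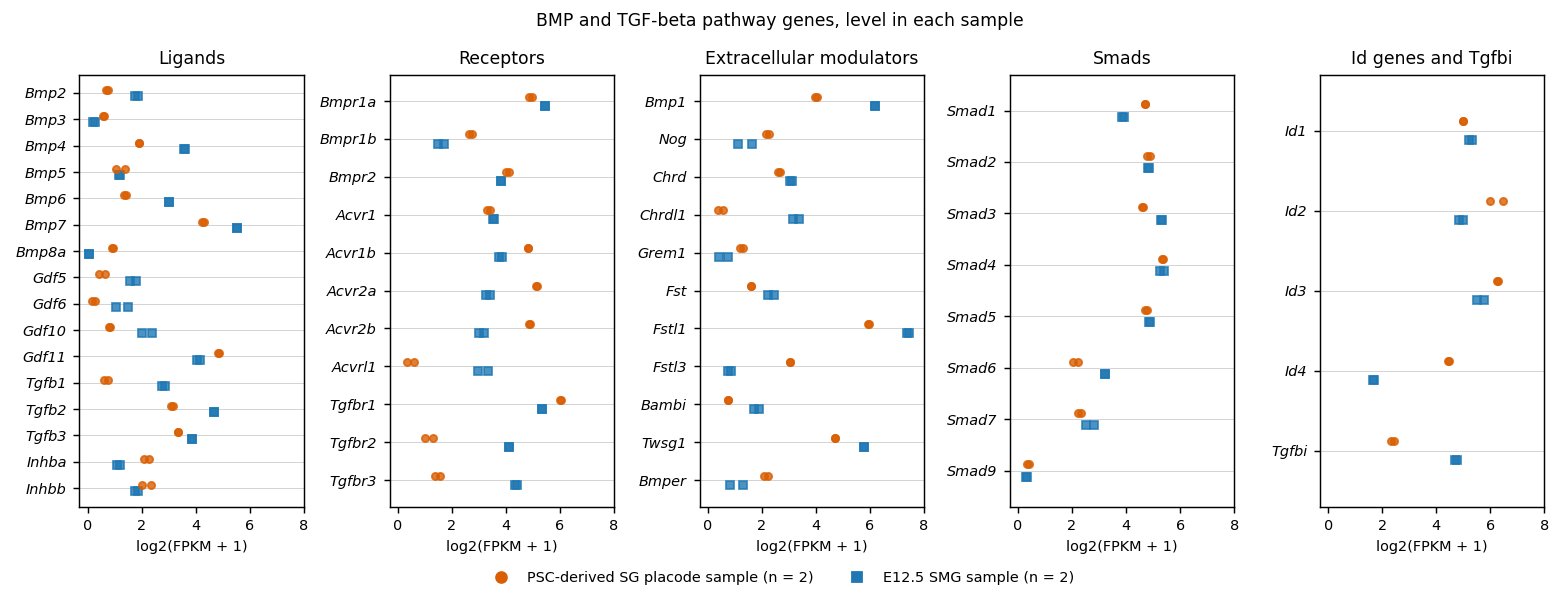
Level of each of the 51 pathway genes in each sample as log2(FPKM + 1), with orange circles for the 2 placode samples and blue squares for the 2 E12.5 SMG samples. Most ligands lay to the left in the placodes, the activin receptors Acvr2a and Acvr2b lay to the right, and Smad2, Smad4 and Smad5 nearly coincided.

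The summed levels of cell type marker lists differed between these bulk samples. The summed FPKM of 10 mesenchyme markers was 196 and 196 in placodes against 1776 and 1744 in SMGs, and all 10 were called at least 2-fold lower in placodes. For 8 endothelial markers the sums were 12.6 and 11.9 against 145 and 152, with all 8 at least 2-fold lower. For 8 epithelial markers they were 58.6 and 64.4 against 612 and 584, with 6 of 8 at least 2-fold lower. Krt5, Krt14 and Krt15, defining keratins of stratified and gland epithelium, were listed at 0 in both placode samples. Of the same list, Krt8 and Krt18 were not called different, and the FPKM of Krt8 was 34.4 and 35.6 in the placodes and 36.1 and 28.3 in the SMGs. The paper, by contrast, reported Krt5 and Krt14 raised by FGF10 in qPCR, and stained Krt5 protein on day 10. Erythroid markers summed to 0.0258 and 0.285 against 2932 and 2946 with 4 of 8 at 0 in both placode samples, and leukocyte markers to 2.50 and 3.02 against 27.8 and 24.4, with 3 of 8 at 0 in both placode samples. The 8 neural markers summed to 963 and 998 in the placodes and to 111 and 102 in the SMGs, all 8 at least 2-fold higher in the placodes. The part of these cell types in the pathway results was not tested, and in bulk samples fewer cells of a type cannot be told apart from less RNA per cell.

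The Id genes encode helix-loop-helix proteins that bind bHLH transcription factors and keep them from DNA, and they are known as direct targets of BMP Smads. Of the 4, 3 were called higher in the placodes and 1 lower, where 76.2% of all tested features were called in either direction. With Tgfbi, the 5 target genes had a median log2 fold change of 0.62. Id4 (ENSMUSG00000021379, chromosome 13, 48261228 to 48266026, plus strand in GENCODE M21 on GRCm38) was at an FPKM of 21.1 and 20.9 in placodes and of 2.28 and 2.19 in SMGs. Every placode value was far above both SMG values, a 9.37-fold difference of the means (log2 fold change 2.76, standard error 0.08, adjusted p = 7.93e-07). This was the highest log2 fold change of the tested pathway genes on the log2(FPKM + 1) scale, while by the ratio of means Fstl3 was higher (9.62), as it was with a pseudocount of 0.01 (3.25 against 3.22 for Id4). Id2 had an FPKM of 88.1 and 62.6 in the placodes, the least even pair among these genes, and of 28.0 and 30.4 in the SMGs. Both placode values nevertheless lay above both SMG values (log2 fold change 1.32, standard error 0.15, adjusted p = 3.19e-04). Id3 was at 76.6 and 75.9 against 44.9 and 54.0, a smaller rise without overlap (log2 fold change 0.62, standard error 0.09, adjusted p = 8.20e-04). Id1 moved the other way, with 30.5 and 30.5 in placodes and 36.5 and 39.1 in SMGs (log2 fold change -0.30, standard error 0.06, adjusted p = 0.00283). Id4 accounted for 9.74% and 11.0% of the summed Id FPKM in placodes and 2.04% and 1.74% in SMGs, while the share of Id1 was 14.1% and 16.05% against 32.7% and 31.1%. The summed FPKM of the 4 genes was 216 and 189.8 in the placodes and 112 and 126 in the SMGs. Id4 shares exon sequence with 2 annotated genes on the opposite strand, A330033J07Rik and Gm49291, and since the strandedness of the libraries is not given, reads of these genes cannot be told apart. Tgfbi, a secreted matrix protein named for its induction by TGF-beta, measured 4.43 and 4.04 FPKM in the placode pair against 26.4 and 25.0 in the SMG pair, which did not overlap (log2 fold change -2.35, standard error 0.08, adjusted p = 1.42e-06).

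For the 3 Id genes called higher, the 250 bases before their RefSeq start sites (GRCm38.p6) are shown, read 5′ to 3′ on the gene's own strand. Id1, which was lower, was not among the genes with a RefSeq window here, so its bases were not searched. Capitals mark matches on either strand to GGCGCC, a GC-rich site that BMP Smads can bind, or to CAGAC, a short box that Smad3 and Smad4 can bind.
Id2, chr12:25096093-25096342, minus strand: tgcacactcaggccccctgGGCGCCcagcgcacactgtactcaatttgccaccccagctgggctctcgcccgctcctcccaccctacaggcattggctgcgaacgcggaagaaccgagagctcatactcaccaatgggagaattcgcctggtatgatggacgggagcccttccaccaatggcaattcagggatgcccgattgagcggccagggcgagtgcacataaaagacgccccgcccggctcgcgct
Id3, chr4:136143572-136143821, plus strand: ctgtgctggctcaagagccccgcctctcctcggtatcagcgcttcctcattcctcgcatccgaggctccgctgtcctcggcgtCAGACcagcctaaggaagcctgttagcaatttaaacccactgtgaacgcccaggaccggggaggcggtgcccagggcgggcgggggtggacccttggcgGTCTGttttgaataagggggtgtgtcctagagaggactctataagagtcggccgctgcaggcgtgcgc
Id4, chr13:48260866-48261115, plus strand: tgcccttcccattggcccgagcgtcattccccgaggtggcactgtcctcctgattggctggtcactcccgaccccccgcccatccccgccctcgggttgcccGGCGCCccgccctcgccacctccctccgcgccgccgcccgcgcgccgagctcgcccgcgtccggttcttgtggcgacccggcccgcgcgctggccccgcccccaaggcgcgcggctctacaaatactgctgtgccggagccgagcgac
GGCGCC occurred once in the Id2 window and once in the Id4 window, and CAGAC occurred at 2 places in the Id3 window. Of the 51 pathway genes, 34 were matched by symbol in the RefSeq promoter table, and 10 of these (29.4%) had GGCGCC in at least 1 listed window, against 10.8% of all 27025 genes of the table (9.59% of its 32851 windows of the same length). The median GC content was 68.0% over 39 windows of the pathway genes and 52.4% in all windows. CAGAC was found for 16 of 34 genes (47.1%) and for 45.8% of all genes (42.2% of windows). GGCGCC with a GTCT starting 5 bases after its end, the spacing of the BMP response element, includes the first motif and was in none of the 34 genes' windows and in 0.0700% of all windows. These matches describe letters only.

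Of the 16 ligand genes, 13 were tested, and 8 were called at least 2-fold lower and 1 at least 2-fold higher in the placodes. Over all tested features, 15.2% were at least 2-fold lower and 14.1% at least 2-fold higher. The tested ligands had a median of -1.16 on the log2 scale. Among the BMPs, Bmp7 was the most abundant in both groups, at 18.9 and 17.9 in placodes and 45.5 and 45.6 in SMGs. The SMG samples were both higher by a factor of 2.47 (log2 fold change -1.26, standard error 0.05, adjusted p = 4.05e-06). Bmp4 (ENSMUSG00000021835, chromosome 14, 46383520 to 46390669, minus strand), which the cultures had been given as protein, had an FPKM of 2.75 and 2.70 in the placodes against 11.0 and 10.8 in the SMGs. This was a 4.00-fold lower mean without overlap (log2 fold change -1.68, standard error 0.08, adjusted p = 7.70e-06). Bmp6 was at 1.53 and 1.69 against 7.15 and 7.02, again with both placode values below both SMG values (log2 fold change -1.63, standard error 0.10, adjusted p = 1.56e-05). Bmp6 shares exon sequence with Txndc5 on the other strand, a gene with an FPKM of 47.2 and 42.9 in placodes and 98.7 and 100.1 in SMGs. Bmp2 was low in both tissues, at 0.596 and 0.701 in placodes against 2.69 and 2.35 in SMGs, and still separated the groups (log2 fold change -1.09, standard error 0.12, adjusted p = 2.29e-04). Bmp5 was at 1.07 and 1.64 in the placodes, on either side of its SMG values of 1.26 and 1.27 (log2 fold change 0.05, 95% interval -0.32 to 0.41, adjusted p = 0.790).

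The GDFs were not uniform. Gdf11, known for restraining neurogenesis and patterning the trunk axis, had FPKM values of 27.5 and 28.4 in the placodes against 15.7 and 17.0 in the SMGs. It was the most abundant ligand transcript of the placodes and was higher there (log2 fold change 0.74, standard error 0.06, adjusted p = 7.80e-05). Gdf10 was at 0.717 and 0.794 in the placodes against 3.07 and 4.19 (log2 fold change -1.39, standard error 0.15, adjusted p = 2.07e-04), and Gdf5, a factor of joint formation, at 0.351 and 0.554 against 2.01 and 2.47 (log2 fold change -1.16, standard error 0.14, adjusted p = 3.66e-04). Both were lower in the placodes without overlap. Of the genes too low to be tested, Gdf6 was at 0.132 and 0.206 in placodes against 1.06 and 1.81 in SMGs. Bmp8a showed the opposite order, with 0.860 and 0.902 against 0.0262 and 0.0374, as did Bmp3, an atypical BMP that opposes other BMPs, with 0.537 and 0.494 against 0.147 and 0.215.

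All 3 TGF-beta genes were called lower in the placodes, where 40.4% of all tested features were lower. Tgfb1 (ENSMUSG00000002603, chromosome 7, 25687002 to 25705077, plus strand) was at an FPKM of 0.544 and 0.673 in placodes and of 5.67 and 6.27 in SMGs. The 9.82-fold gap was the widest among the tested ligands (log2 fold change -2.12, standard error 0.11, adjusted p = 9.65e-06). Tgfb2, the most abundant of the 3 in the SMGs, was at 8.04 and 7.51 against 24.9 and 24.6 (log2 fold change -1.55, standard error 0.07, adjusted p = 3.89e-06). For Tgfb3 the placode values of 9.27 and 9.26 were below the SMG values of 13.6 and 13.4 by less than 2-fold (log2 fold change -0.50, standard error 0.07, adjusted p = 6.02e-04), so Tgfb3 was the most abundant TGF-beta transcript of the placodes. The summed FPKM of the 3 genes was 17.9 and 17.4 in placodes and 44.2 and 44.3 in SMGs.

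The activin subunits rose instead. Inhba, the subunit of activin A, measured 3.27 and 3.79 FPKM in the placode pair against 1.15 and 1.28 in the SMG pair, without overlap (log2 fold change 1.03, standard error 0.11, adjusted p = 2.69e-04). Its log2 fold change was just under 1 without placode sample 2 (0.95) and without SMG sample 1 (0.99). Inhbb was at 4.03 and 3.06 against 2.68 and 2.38 and passed the threshold only narrowly (log2 fold change 0.36, standard error 0.14, adjusted p = 0.0499). Its adjusted p was 0.206 without placode sample 1, 0.116 without SMG sample 1 and 0.218 without SMG sample 2. The shares of the ligands in their summed FPKM are given as a description, with no test. Gdf11 held 34.3% and 35.4% of the summed ligand FPKM in placodes and 11.4% and 12.1% in SMGs. Bmp7 held 23.6% and 22.3% against 33.0% and 32.4%, and Bmp4 3.44% and 3.36% against 8.01% and 7.65%. The sum over the 16 ligands was 80.1 and 80.3 in the placodes and 138 and 141 in the SMGs.

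**Figure D2:**
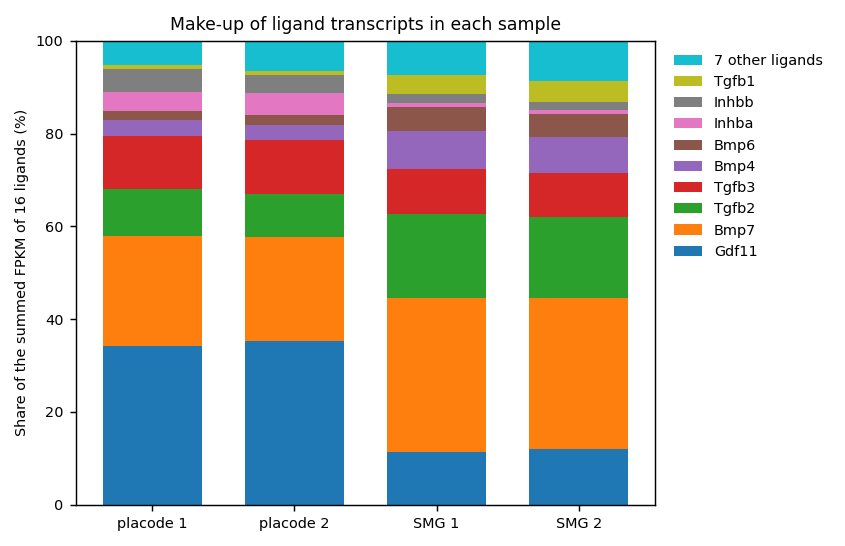
Share of each ligand in the summed FPKM of the 16 ligand genes, in percent, as 1 stacked bar per sample, with the 7 least prominent ligands joined. Gdf11 forms the largest block in both placode samples (34.3% and 35.4%) and Bmp7 in both SMG samples (33.0% and 32.4%).

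Among the 11 receptors, all of which were tested, 4 were at least 2-fold higher and 3 at least 2-fold lower in the placodes. Over all tested features, 14.1% were at least 2-fold higher and 15.2% at least 2-fold lower. The median over the receptors was 0.25 on the log2 scale. The activin type II receptors moved together. Acvr2a had FPKM values of 33.6 and 34.2 in the placodes against 9.58 and 8.74 in the SMGs (log2 fold change 1.78, standard error 0.07, adjusted p = 2.34e-06). Acvr2b was at 28.0 and 28.5 against 7.07 and 8.05 (log2 fold change 1.78, standard error 0.08, adjusted p = 4.22e-06). Both were over 3 times higher by mean FPKM (3.70 and 3.74), and the groups did not overlap. Acvr2a shares exon sequence with Orc4 on the other strand, whose FPKM was 17.5 and 18.6 in the placodes and 14.3 and 15.1 in the SMGs. The activin type I receptor Acvr1b was at 27.1 and 27.4 against 13.4 and 12.3 (log2 fold change 1.03, standard error 0.06, adjusted p = 2.03e-05). Of the BMP type I receptors, Bmpr1b rose from 2.31 and 1.79 in the SMGs to 5.67 and 5.15 in the placodes (log2 fold change 1.07, standard error 0.12, adjusted p = 2.99e-04). Without SMG sample 2, the log2 fold changes of Acvr1b (0.97) and Bmpr1b (0.95) were just under 1, which left 2 receptors at least 2-fold higher. Bmpr1a, the more abundant of the pair, was lower in the placodes, at 28.2 and 30.4 against 42.4 and 43.1 (log2 fold change -0.53, standard error 0.06, adjusted p = 2.18e-04).

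TGF-beta receptors diverged from each other. Tgfbr1, the type I receptor, was the most abundant receptor of the placodes, at 62.5 and 64.8 against 39.4 and 39.5 in the SMGs (log2 fold change 0.68, standard error 0.05, adjusted p = 3.34e-05). Its type II partner Tgfbr2 (ENSMUSG00000032440, chromosome 9, 116084293 to 116175360, minus strand), needed to bind TGF-beta, was at an FPKM of 0.992 and 1.45 in placodes and of 16.2 and 16.4 in SMGs. The mean was 13.4-fold lower in the placodes (log2 fold change -2.97, standard error 0.12, adjusted p = 3.39e-06). This was the lowest log2 fold change of the tested genes of the set with a pseudocount of 1, but not with one of 0.01, where Tgfbr2 was at -3.76 and Chrdl1 and Acvrl1 were lower (-4.54 and -4.42). Tgfbr3, the co-receptor betaglycan, followed at 1.97 and 1.57 against 19.0 and 20.2 (log2 fold change -2.89, standard error 0.10, adjusted p = 1.93e-06). Tgfbr3 shares exon sequence with Gm43422 on the same strand, for which no FPKM is listed. Acvrl1, a type I receptor best known from endothelium, was at 0.254 and 0.504 against 9.06 and 6.84, a ratio of 20.95 (log2 fold change -2.69, standard error 0.16, adjusted p = 1.72e-05). For these 3 receptors both SMG values were several times every placode value. The mesenchyme, endothelial, epithelial, erythroid and leukocyte marker sums given above were lower in the placodes too, and their part was not tested. Of the remaining receptors, Bmpr2 was slightly higher in the placodes, at 15.1 and 16.4 against 13.1 and 13.0 (log2 fold change 0.25, standard error 0.07, adjusted p = 0.0154), and the adjusted p was 0.0868 without placode sample 2, 0.0720 without SMG sample 1 and 0.0726 without SMG sample 2. Acvr1 was at 9.68 and 8.83 in placodes against 10.4 and 10.7 in SMGs and was not called (log2 fold change -0.17, 95% interval -0.36 to 0.02, adjusted p = 0.0841).

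**Figure D3:**
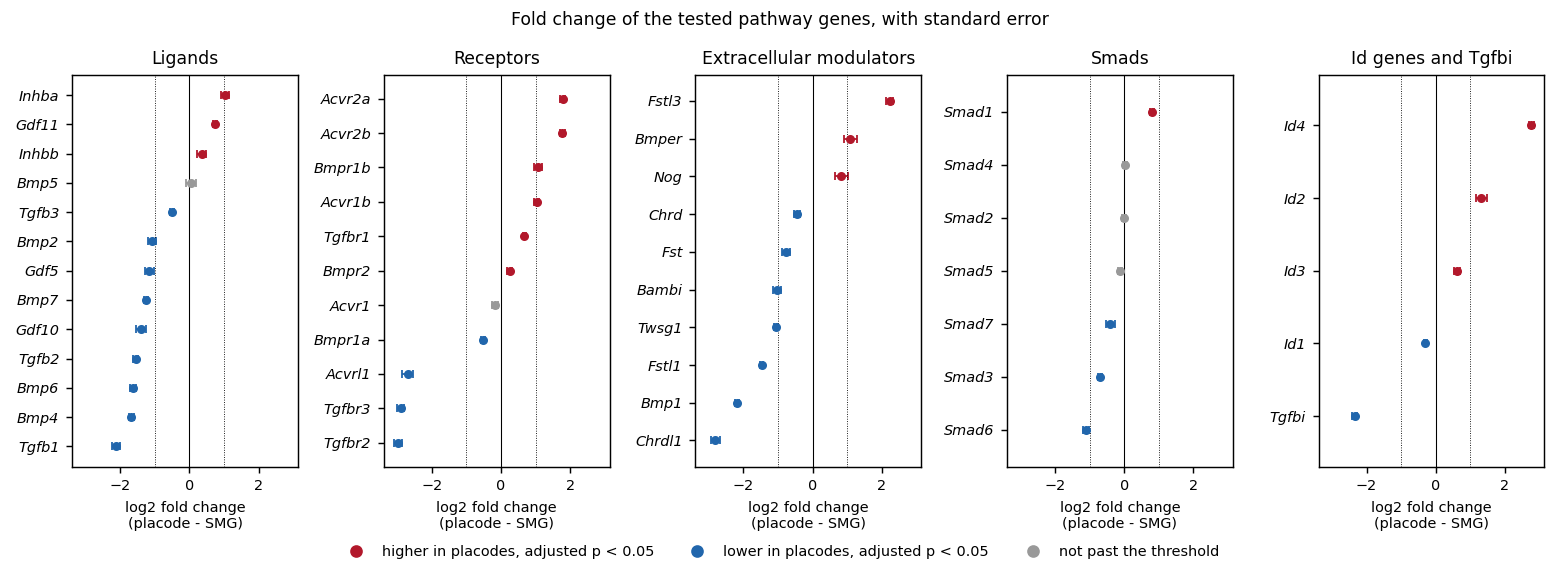
Log2 fold change (placode minus SMG, of log2(FPKM + 1)) of the 46 tested pathway genes by role, with bars for the standard error, red for higher, blue for lower and grey for genes not past an adjusted p of 0.05. Dotted lines mark 2-fold, and the range runs from -2.97 for Tgfbr2 to 2.76 for Id4.

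Of the 11 extracellular modulators, 10 were tested, and 5 were at least 2-fold lower and 2 at least 2-fold higher in the placodes. Over all tested features, 15.2% were at least 2-fold lower and 14.1% at least 2-fold higher. The modulators had a median of -0.90 on the log2 scale. Bmp1, which despite its name is a protease that trims procollagen and cleaves chordin, measured 14.5 and 15.4 FPKM in the placode pair against 71.7 and 71.7 in the SMG pair (log2 fold change -2.19, standard error 0.05, adjusted p = 5.08e-07). Fstl1, a secreted follistatin-like protein of mesenchyme, was the most abundant gene of the whole set in the SMGs, at 174 and 163 against 60.9 and 59.1 in the placodes (log2 fold change -1.47, standard error 0.05, adjusted p = 1.97e-06). The groups were well apart for both genes. Chrdl1, a chordin-like antagonist of BMPs, was at 0.283 and 0.458 in the placodes against 9.28 and 7.96 in the SMGs, a ratio of 23.3 (log2 fold change -2.81, standard error 0.13, adjusted p = 4.94e-06). Twsg1, which binds BMPs together with chordin, was at 25.2 and 25.3 against 53.6 and 54.0 (log2 fold change -1.07, standard error 0.05, adjusted p = 4.73e-06). The pseudoreceptor Bambi, which lacks a kinase, was at 0.692 and 0.697 against 2.69 and 2.28 (log2 fold change -1.04, standard error 0.12, adjusted p = 2.93e-04). Its log2 fold change was just short of 2-fold under quantile normalization (-0.996) and without SMG sample 1 (-0.95). The placode values of all of these were below the SMG values.

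The modulators that rose were led by Fstl3, an inhibitor of activin. Fstl3 (ENSMUSG00000020325, chromosome 10, 79777272 to 79782630, plus strand) had FPKM values of 7.17 and 7.13 in the placodes against 0.688 and 0.798 in the SMGs, a 9.62-fold higher mean (log2 fold change 2.23, standard error 0.10, adjusted p = 5.24e-06). It shares exon sequence with Prss57 on the other strand, whose FPKM was below 0.1 in all 4 samples. Bmper, a BMP-binding regulator, was at 3.64 and 3.21 against 1.46 and 0.750 (log2 fold change 1.09, standard error 0.18, adjusted p = 0.00170), and its log2 fold change was 0.84 without SMG sample 2. Nog, which encodes noggin, was at 3.40 and 3.74 against an uneven 2.08 and 1.15 and was called at under 2-fold on the log2 scale (log2 fold change 0.83, standard error 0.18, adjusted p = 0.00625). The call on Nog was lost without placode sample 1 (adjusted p = 0.0711) or placode sample 2 (adjusted p = 0.0920). Grem1, another antagonist of BMPs, was not tested and was at an FPKM of 1.46 and 1.28 in placodes and of 0.683 and 0.317 in SMGs. Chrd and Fst went the other way. Chrd, which encodes chordin, was at 5.37 and 5.02 against 7.24 and 7.63 (log2 fold change -0.45, standard error 0.09, adjusted p = 0.00343), and Fst, the follistatin that neutralizes activin, at 2.00 and 2.00 against 4.53 and 3.71 (log2 fold change -0.77, standard error 0.12, adjusted p = 0.00119). The modulators therefore did not move as a block, with Nog, Bmper and Fstl3 higher and Chrd, Chrdl1 and Fst lower in the placodes.

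The Smads varied least of the 5 roles, with a median absolute log2 fold change of 0.40 over 7 tested genes, against 0.55 over all tested features. Smad4, the common partner, was the most abundant in the placodes, with an FPKM of 38.9 and 39.8 there and 40.8 and 36.9 in the SMGs (log2 fold change 0.02, 95% interval -0.13 to 0.17, adjusted p = 0.800). Smad2 was at 28.6 and 26.4 against 27.3 and 27.6 (log2 fold change 0.00, 95% interval -0.14 to 0.15, adjusted p = 0.981). For both genes the groups overlapped, and their intervals stayed within a 2-fold change in either direction. Smad5, a receptor Smad of BMPs, was at 25.2 and 26.5 against 28.6 and 27.6 and was not called (log2 fold change -0.11, 95% interval -0.25 to 0.02, adjusted p = 0.105). Its relative Smad1 was higher in the placodes, at 24.6 and 24.8 against 14.2 and 13.5 (log2 fold change 0.80, standard error 0.06, adjusted p = 4.00e-05). Smad3, which carries TGF-beta and activin signals, was lower, at 23.7 and 22.8 against 37.8 and 38.8 (log2 fold change -0.70, standard error 0.05, adjusted p = 4.57e-05). The inhibitory Smads were both called lower, where 40.4% of all tested features were lower. Smad6 was the only tested Smad with at least a 2-fold change, at 3.13 and 3.63 in placodes and 8.37 and 8.39 in SMGs (log2 fold change -1.10, standard error 0.10, adjusted p = 9.05e-05). Smad7 was at 4.02 and 3.65 against 6.11 and 4.72 (log2 fold change -0.40, standard error 0.13, adjusted p = 0.0293), and this call was lost without placode sample 1 (adjusted p = 0.117), placode sample 2 (adjusted p = 0.193) or SMG sample 1 (adjusted p = 0.140). Smad9, the third BMP receptor Smad, was below an FPKM of 1 in all samples, at 0.325 and 0.269 in placodes against 0.238 and 0.270 in SMGs, and was not tested.

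**Figure D4:**
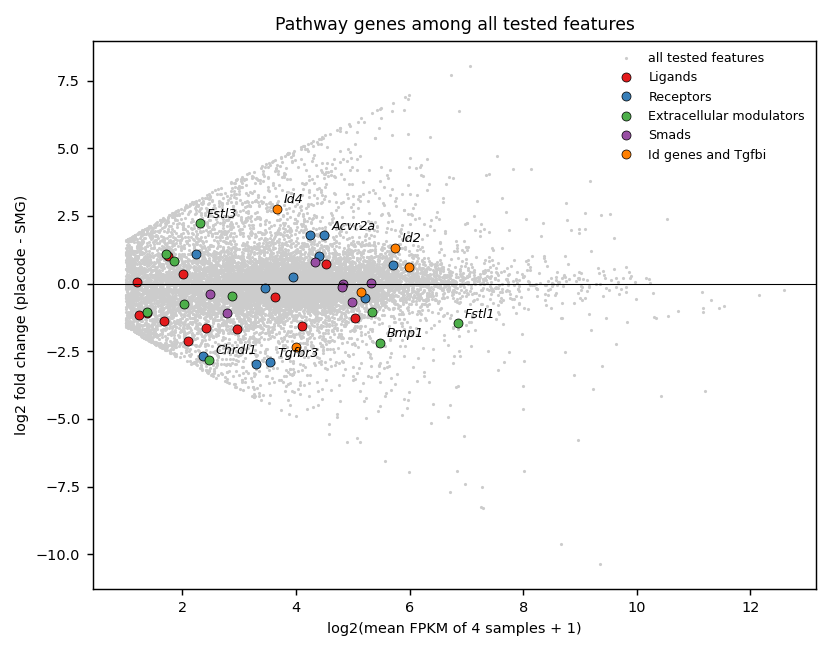
Log2 fold change (placode minus SMG) against log2(mean FPKM of the 4 samples + 1) for 13193 tested features in grey and the 46 tested pathway genes in colour by role. Id4 (2.76) and Fstl3 (2.23) lie highest among the pathway genes, and Tgfbr3 (-2.89) and Chrdl1 (-2.81) are among the lowest.

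Other genes of the pathway were taken from a list of 71 genes in the table, none of them among the 51. Of these, 43 were tested and 34 (79.1%) were called, near the 76.2% of all tested features. There were 16 higher genes, where 35.7% of all features were higher, and 18 lower genes, where 40.4% of all features were lower. At least 2-fold differences were called for 9 higher and 11 lower genes (46.5% against 29.4% of all features). The median log2 fold change was -0.07. The list held 17 further ligands, of which 16 were below a mean FPKM of 1, among them Nodal, Gdf3, Lefty1 and Lefty2, and Inha alone was tested.

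Among the 5 highest log2 fold changes were those of Fstl5, Rgmb, Tmeff1 and Rgma. Fstl5, a follistatin-like gene, measured 11.7 and 12.3 FPKM in the placode pair against 1.15 and 1.19 in the SMG pair (log2 fold change 2.59, standard error 0.09, adjusted p = 1.94e-06). Rgmb and Rgma, co-receptors of BMPs that also act in axon guidance, were at 89.7 and 79.0 against 13.6 and 13.6 (log2 fold change 2.54, standard error 0.07, adjusted p = 7.93e-07) and at 112 and 112 against 35.1 and 34.8 (log2 fold change 1.65, standard error 0.04, adjusted p = 7.20e-07). Both exceeded every receptor of the main set in the placodes. Tmeff1, a membrane protein with follistatin modules, was at 255 and 246 against 56.9 and 52.1 (log2 fold change 2.18, standard error 0.06, adjusted p = 7.34e-07).

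The 5 lowest belonged to Eng, Col1a2, Nbl1, Thbs1 and Dlx5. Eng, the TGF-beta co-receptor endoglin of endothelial cells, had FPKM values of 0.153 and 0.184 in the placodes against 18.1 and 18.1 in the SMGs (log2 fold change -4.03, standard error 0.09, adjusted p = 4.43e-07). Col1a2, a fibrillar collagen of mesenchyme that TGF-beta is known to raise, was at 34.3 and 31.7 against 482 and 464 (log2 fold change -3.80, standard error 0.06, adjusted p = 1.55e-07). The marker sums given above were all lower in the placodes too, except the neural one, and their part was not tested. Nbl1, a BMP antagonist of the DAN family, was at 8.63 and 6.60 against 67.8 and 72.8 (log2 fold change -3.06, standard error 0.11, adjusted p = 2.48e-06), and Thbs1, an activator of latent TGF-beta, at 2.84 and 2.87 against 29.7 and 30.5 (log2 fold change -3.01, standard error 0.07, adjusted p = 4.45e-07). Dlx5, a homeobox gene of the first arch that responds to BMPs, was at 0.393 and 0.0447 against 7.66 and 8.91 (log2 fold change -2.94, standard error 0.17, adjusted p = 1.30e-05). These 9 genes were picked for their large changes, and in none of them did a placode value overlap an SMG value. Of all tested features, 88.4% did not overlap.

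**Figure D5:**
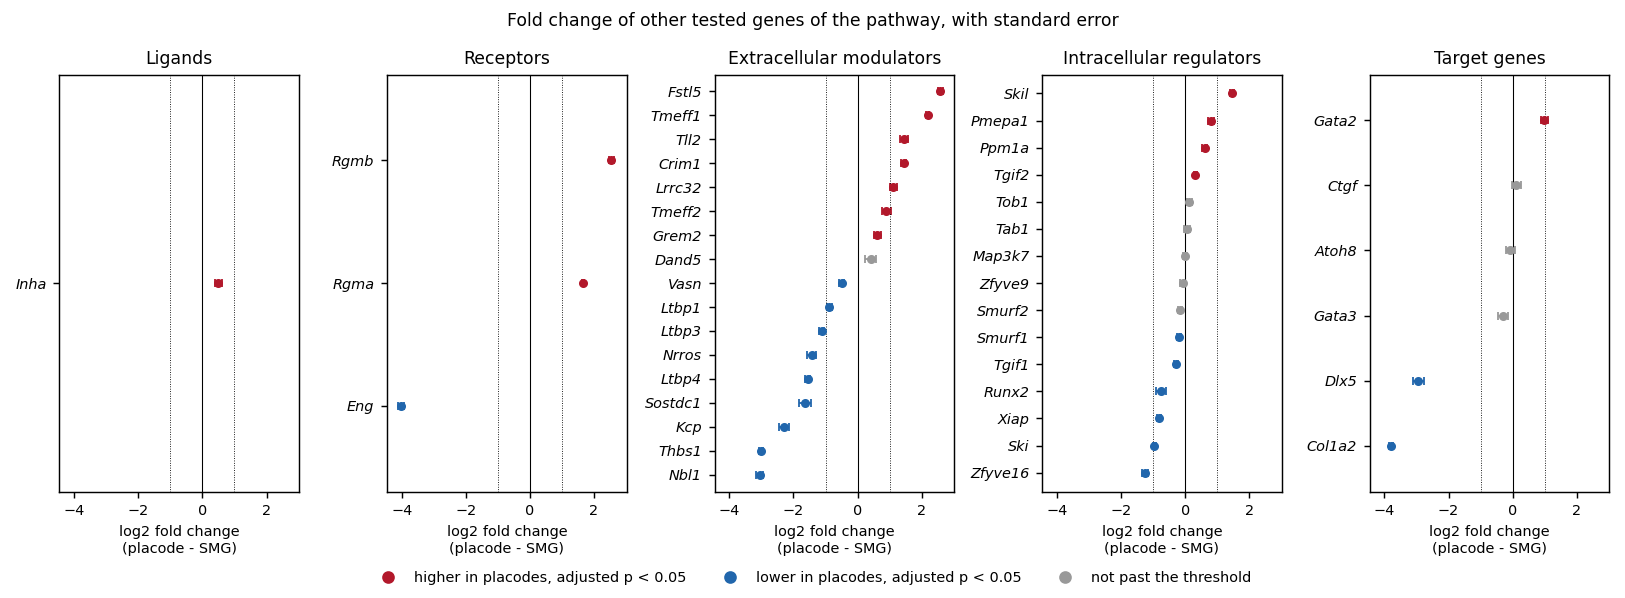
Log2 fold change (placode minus SMG, of log2(FPKM + 1)) with standard error of 42 tested genes of the pathway outside the set of 51, by role and in the same colours as the fold changes of the set. Values run from -4.03 for Eng to 2.59 for Fstl5.

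The pseudocount set the size of the change of low genes. With 0.01 in place of 1, the log2 fold change was -1.94 for Bmp2, -2.23 for Gdf10, -1.82 for Bambi, -3.28 for Tgfb1 and -2.31 for Gdf5, with the same direction and call. The sources name neither a date nor a batch of sequencing, and one that coincided with the groups cannot be told apart from them.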

How the data were processed

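RNA of 2 samples of PSC-derived SG placodes and 2 of E12.5 SMGs was profiled by paired-end RNA-seq (Illumina). The authors mapped the reads with HISAT2 and deposited 1 FPKM value per gene and sample, in a table of 22036 Ensembl genes and 2735 assembled loci, and the values were used as they stand. The submitters' processing notes name GRCm38 and GRCh38. The version of HISAT2, the annotation, the strandedness and the program behind FPKM are not given in the sources used here. Low values showed no steps of whole reads, so depth is unknown and no counting intervals are given.

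After a log2(FPKM + 1) transform, features averaging an FPKM of at least 1 were fitted together with limma 3.58.1 in R 4.3.3 (lmFit, eBayes with trend, group as the only term), two-sided, with Benjamini-Hochberg adjustment over 13193 features. With 2 samples a side, the smallest two-sided p of an exact permutation test is 0.333. The fit was tested on simulated data. Alternatives changed the pseudocount, the minimum, the scaling, the variance model and the replicate block, or left out each sample. Identifiers of all 51 genes were found in GENCODE M21 (GRCm38). Exon sequence was shared with an opposite-strand gene by 13 and with a same-strand gene by 2 of them. The 2 were Tgfbr3 (with Gm43422) and Smad5 (with Gm27301), and no FPKM is listed for either partner. Figures were drawn with Python 3.11.15.

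The genes and lists were chosen with earlier results of these data known. All 51 genes may be named. Of the other pathway genes, the 5 highest and 5 lowest among those called at least 2-fold different are named, apart from 1 gene that is not reported here. Of 72 symbols on that list, 71 were found, since Ccn2 and Ctgf are 1 gene, which the table lists as Ctgf. Protein sequences were not used here.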

Additional observations from a re-analysis of the deposited data

How the results depend on the processing

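Counts of called genes were recomputed under 16 alternatives, while the share of all features called at 2-fold was not. A mean FPKM of at least 5 left 29 of the 46 genes to test, and counts fell with them. There were 10 higher and 15 lower genes, 5 at least 2-fold higher and 10 at least 2-fold lower. Of the 9679 features then tested, 3594 were higher and 3866 lower. Ligands at least 2-fold different then numbered 0 higher and 3 lower, and modulators 0 higher and 3 lower. limma's treat, which tests for a change beyond 2-fold, called 4 genes higher, with 0 ligands, 2 receptors, 1 modulator and 1 target gene, and among lower genes it called 5 ligands, 3 modulators and 0 Smads. Leaving out each sample in turn gave 6 to 9 genes at least 2-fold higher, with 0 to 1 ligands, 2 to 4 receptors and 1 to 3 modulators, and 17 to 18 at least 2-fold lower. Nog and Fst reached 2-fold with a pseudocount of 0.01 (1.20 and -1.03). The lowest counts of receptors and modulators were without SMG sample 2 and the highest of modulators, with Nog at 1.09, without SMG sample 1. The remaining sample of a group was then assumed to vary like the other group.
Direction turned for 3 genes that were not called. Smad2 had log2 fold changes of -0.0151 under quantile normalization and -0.00778 when scaled without mitochondrial, ribosomal protein and hemoglobin genes, and from -0.0538 to 0.0572 with 1 sample left out. Smad4 was at -0.0329 under quantile normalization and from -0.0528 to 0.0899 with 1 sample left out, where Bmp5 ranged from -0.13 to 0.22. The cause was not tested. Over single genes, 650 recomputed values kept direction and call, 16 lost the call and 7 turned. Inhbb also lost its call under pseudocounts of 0.1 and 0.01, without a minimum of mean FPKM, and when scaled without the genes named above, and Smad7 without a minimum. Scaling moved the median of all features by less than 0.1.
The samples share only a replicate number. Deviations of same-numbered samples had r = -0.035 over the tested features. With a replicate block 16 genes were higher and 25 lower, 9 and 18 of them at least 2-fold, with no call changed. Of all 13193 features, 4702 were then higher and 5341 lower. The unknown depth limits what can be said of the genes below an FPKM of 1.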

Other observations

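Further genes of the pathway, named after their values were seen, concern the storage of latent TGF-beta and the nuclear brakes on Smads. Of the 4 latent TGF-beta binding proteins of the matrix, 3 were called lower in the placodes, where 40.4% of all tested features were lower. Ltbp2 was not tested (FPKM 0.0872 and 0.0781 in placodes against 0.136 and 0.140 in SMGs). Ltbp1 was at an FPKM of 8.71 and 9.12 in placodes and of 18.1 and 16.5 in SMGs (log2 fold change -0.88, standard error 0.08, adjusted p = 8.13e-05). Ltbp3 was at 7.11 and 7.96 against 18.3 and 16.8 (log2 fold change -1.12, standard error 0.08, adjusted p = 4.41e-05), and Ltbp4 was at 6.44 and 6.70 against 22.5 and 20.01 (log2 fold change -1.55, standard error 0.08, adjusted p = 9.03e-06). Lrrc32, which tethers latent TGF-beta to the cell surface, was higher in the placodes, at 4.88 and 5.50 against 1.93 and 1.76 (log2 fold change 1.12, standard error 0.11, adjusted p = 1.31e-04), while its relative Nrros was lower, at 0.539 and 0.736 against 3.74 and 3.12 (log2 fold change -1.44, standard error 0.13, adjusted p = 1.04e-04). The related co-repressors of Smads went opposite ways. Ski was at 25.4 and 24.5 in the placodes against 49.8 and 49.6 in the SMGs (log2 fold change -0.97, standard error 0.05, adjusted p = 8.68e-06), and Skil at 26.5 and 28.0 against 9.64 and 9.05 (log2 fold change 1.45, standard error 0.07, adjusted p = 5.24e-06). All adjusted p-values are from limma over all tested features.

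Without a minimum of mean FPKM, 4 of the 5 genes of the set that had been left out were called by limma over 20464 features, where 58.1% of all features were called. Bmp8a (0.87, adjusted p = 7.40e-04), Grem1 (0.67, adjusted p = 0.0195) and Bmp3 (0.36, adjusted p = 0.0129) were higher in the placodes on the log2 scale, and Gdf6 (-1.04, adjusted p = 0.00783) was lower. Smad9 was not called (0.05, adjusted p = 0.561).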
